A study of Hyphopichia burtonii and Hyphopichia pseudoburtonii with 16 samples.

Results

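Aminoacyl-tRNA synthetases are the enzymes that join each amino acid to its transfer RNA. Their genes were taken as every row of the 2 expression tables whose description holds the words "--tRNA ligase", in capitals or not. The rule gave 74 of 12015 rows, 38 of 6115 in the yeast Hyphopichia burtonii and 36 of 5900 in Hyphopichia pseudoburtonii. In each species 16 rows are described as mitochondrial. The remaining 22 and 20 rows, here called the other synthetases, are described as cytoplasmic or without a compartment.

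A synthetase first activates its amino acid with ATP and then transfers it to the tRNA, so the enzyme set fixes which amino acid each codon adds. Yeast cells charge tRNA in the cytosol and again inside mitochondria, where the products serve the few proteins of the mitochondrial genome. In Saccharomyces cerevisiae most amino acids have a separate nuclear gene for the mitochondrial enzyme, while ALA1, GRS1, HTS1 and VAS1 each make the enzyme of both compartments. Phenylalanyl-tRNA synthetase of the cytosol is built of an alpha subunit (FRS2) and a beta subunit (FRS1). When charging falls short, uncharged tRNA activates the kinase Gcn2, which raises translation of Gcn4, the activator of amino acid synthesis genes.

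RNA was sequenced from wild-type strains KJJ43 (H. burtonii) and KJS14 (H. pseudoburtonii), both isolated from Nuruk, a Korean fermentation starter. Cells grew in YPD, a rich glucose medium, from an OD600 of 0.6 to 2.0, when the culture was doubled in volume with YPD holding 2 M NaCl, to 1 M NaCl. They were harvested at 0 min (before the addition) and at 5, 15 and 30 min, with 2 libraries per species and time and 16 in all. The later samples also received fresh medium and no course without salt was analysed, so salt and medium cannot be told apart. Each species is 1 strain with its own series of libraries, so species and library series cannot be told apart either. Nothing in the labels says that the 2 libraries of a time are separate cultures, and p-values then measure only the spread between these samples, which may be technical.

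The values are FPKM, fragment numbers scaled by transcript length and by library size. FPKM summed to between 1259069 and 1498017 per library, and the read counts are unknown. Relative depth, roughly estimated per library from the genes with the lowest FPKM times span, ran from 0.461 to 1 in H. burtonii and from 0.262 to 1 in H. pseudoburtonii. The 0 min libraries were the shallowest in the first species (0.531 and 0.461) and the deepest in the second (0.958 and 1), so depth moved with time, and its part in the results was not tested. All 38 and 36 synthetase rows passed the filter of FPKM of at least 1 in at least 2 libraries of the species. A gene is called when limma on log2(FPKM + 1), adjusted by Benjamini-Hochberg over the 6047 or 5798 genes tested in a species, gives an adjusted p under 0.05. Fold changes on that scale understate the change of low genes, and all changes from 0 min in a species share the 0 min libraries.

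Each species had a synthetase row for all 20 amino acids. The other synthetases lacked rows for aspartate, glycine, histidine and valine in H. burtonii and for glycine, histidine and valine in H. pseudoburtonii. The genes present for glycine, histidine and valine are GRS1, HTS1 and VAS1, which the tables describe as mitochondrial after the S. cerevisiae proteins they match. The row of the cytosolic aspartyl enzyme DPS1 was in the H. pseudoburtonii table, and DPS1 of H. burtonii is not analysed here. Mitochondrial rows were missing in both species for alanine, arginine, cysteine, glutamine and proline. In S. cerevisiae, mitochondrial glutaminyl-tRNA comes from an amidotransferase made of the HER2, PET112 and GTF1 products rather than from a synthetase. Proline had 2 rows outside the mitochondrial class in each species: PRS, which matches a cytoplasmic enzyme, and ProRS, which matches the putative prolyl enzyme of S. cerevisiae.

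Some genes were annotated in pieces. In H. burtonii WRS1 (tryptophan), CDC60 (cytosolic leucine) and ISM1 (mitochondrial isoleucine) each stood on 2 neighbouring rows and GLN4 (glutamine) on 3, on the same strand with 14 to 173 bases between them. In H. pseudoburtonii NAM2 (mitochondrial leucine) stood on 2 rows with 49 bases between them, and GLN4 had rows on 2 chromosomes (TBIG000779 on 1 and TBIG002584 on 3). Joined, the rows came to 33 and 35. The sources used here do not say how reads shared by such pieces, by copies or by overlapping antisense genes were assigned, and single pieces are therefore uncertain. In H. burtonii the 306 bp CDC60 piece TBIG003563 read 1046 and 1030 FPKM at 0 min, while the long piece TBIG003562 beside it read 57.7 and 76.6. The short piece was thus the highest synthetase row of that table and says little of the gene's level.

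Before salt, the other synthetases were expressed above the mitochondrial ones in both species. In H. burtonii the median FPKM at 0 min was 94.1 and 84.9 over the other rows and 31.3 and 28.0 over the mitochondrial rows, against 25.9 and 28.8 over all genes tested. In H. pseudoburtonii it was 254 and 268 over the other rows and 58.0 and 58.8 over the mitochondrial rows, against 39.1 and 39.3 over all genes. The tables were normalised separately and levels are therefore not compared between species. Leaving out the short CDC60 piece, the highest rows of H. burtonii were SES1, the cytosolic seryl enzyme (379 ± 10.6 FPKM, SD, n = 2), DED81, the cytosolic asparaginyl enzyme (242 ± 52.8), and GRS1 (179 ± 17.7). The lowest were PRS (4.26 ± 2.49) and the ISM1 piece TBIG003013 (5.99 ± 1.14). In H. pseudoburtonii the highest were GRS1 (494 ± 15.8), GUS1, the cytosolic glutamyl enzyme (405 ± 42.6), and SES1 (362 ± 25.4), and SES1 and ArgRS (361 ± 7.61) did not differ beyond their spread. The lowest there was the GLN4 row TBIG000779 (24.4 ± 9.25), followed by MSM1 (33.5 ± 2.26) and DIA4 (33.9 ± 1.09), the mitochondrial methionyl and seryl enzymes, which did not differ beyond their spread.

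**Figure D1:**
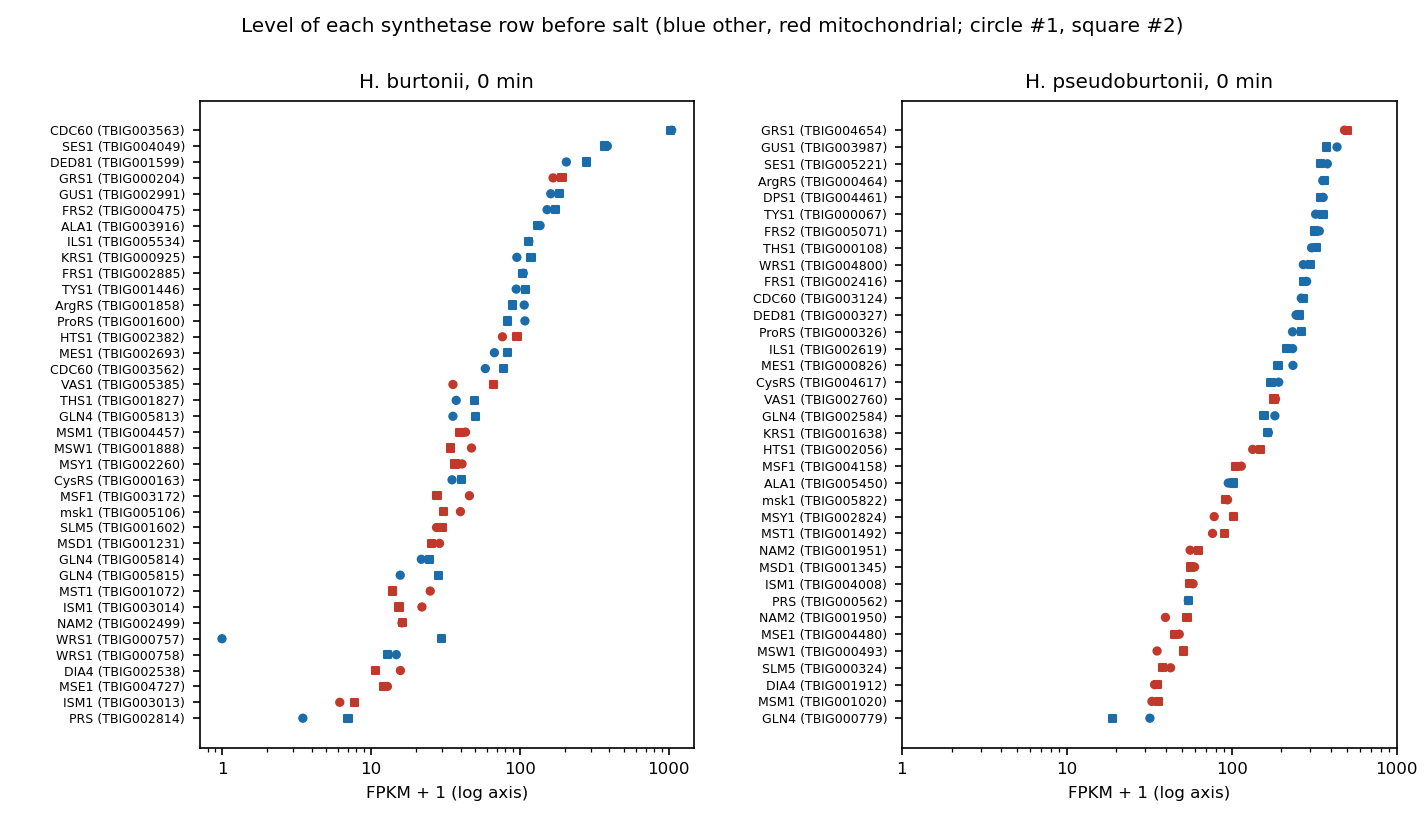
FPKM + 1 of each synthetase row in the 0 min libraries on a log axis, H. burtonii left and H. pseudoburtonii right, with rows ordered by their mean; blue marks other and red mitochondrial rows, circles library 1 and squares library 2. Blue rows fill most of the upper part in both species, with GRS1 the exception near the top, and 1 WRS1 piece of H. burtonii is listed at 0 in 1 library.

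Summed over all rows, synthetases took 0.252 and 0.279% of FPKM at 0 min in H. burtonii, 0.275 and 0.266% at 5 min, 0.246 and 0.258% at 15 min and 0.412 and 0.339% at 30 min. Both 30 min libraries lay above all 6 earlier ones. The short CDC60 piece made up a large part of these sums. Without it the shares were 0.179 and 0.204% at 0 min, 0.213 and 0.211% at 5 min, 0.212 and 0.226% at 15 min and 0.331 and 0.274% at 30 min, and all later libraries lay above both 0 min libraries. In H. pseudoburtonii the share was 0.449 and 0.444% at 0 min, 0.565 and 0.555% at 5 min, 0.548 and 0.455% at 15 min and 0.384 and 0.420% at 30 min. There the 30 min libraries were the lowest of the 8. In these bulk libraries fewer cells with a transcript and less RNA per cell cannot be told apart.

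**Figure D2:**
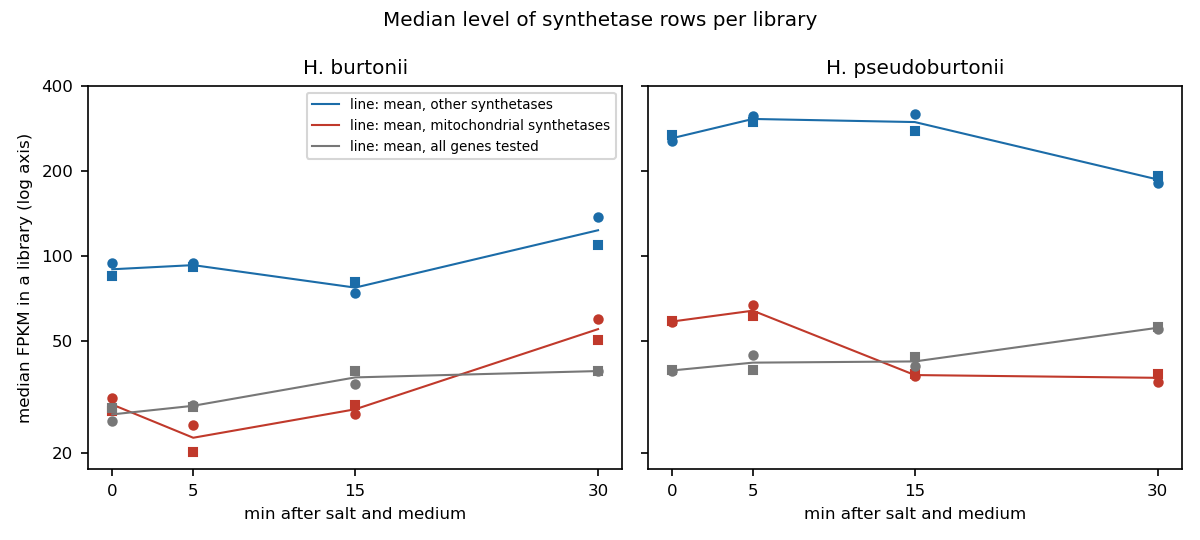
Median FPKM per library (log axis) against minutes after the addition of salt and medium, for the other synthetases (blue), the mitochondrial synthetases (red) and all genes tested (grey); circles are library 1, squares library 2 and lines the mean. In H. burtonii both synthetase classes end above their 0 min medians, and in H. pseudoburtonii both end below theirs while the median of all genes rises.

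The first comparison asked which synthetase genes of H. burtonii changed within 5 min. Of 22 other rows 6 (27.3%) were called higher and 0 lower, and of 16 mitochondrial rows 0 were called higher and 3 (18.8%) lower. Over all genes 11.2% were called higher and 11.1% lower. With so few rows the mitochondrial share called lower is not far from that of all genes. The median log2 change was 0.37 in the other rows and -0.15 in the mitochondrial rows, against 0.07 over all genes. These calls rest on few libraries. All of them were lost without either 5 min library, a refit that leaves 1 library at 5 min, and some also without 0 min replicate 1. How many calls of all genes were lost in the same refits was not taken. The losses therefore cannot be called particular to synthetases. At an unadjusted p under 0.05 there were 10 higher and 0 lower other rows, and 0 higher and 4 lower mitochondrial rows, against 20.7% higher and 18.7% lower over all genes.

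PRS, a prolyl enzyme, rose from 2.49 and 6.02 FPKM at 0 min to 19.3 and 19.6 at 5 min. All later libraries lay above both 0 min libraries. The log2 change was 2.05 (SE 0.35, limma adjusted p = 0.00832), and 2.06 and 2.04 without a call when either 5 min library was left out. The second prolyl gene, ProRS, was not called at 5 min (0.21). FRS2, the alpha subunit of cytosolic phenylalanyl-tRNA synthetase, rose from 152 and 174 to 323 and 360 FPKM (1.07, SE 0.18, limma adjusted p = 0.00805; 1.15 and 0.99 without a call when either 5 min library was left out). The beta subunit FRS1 was at 105 and 104 FPKM at 0 min and 127 and 138 at 5 min (0.34, not called). The remaining rows called higher were a WRS1 piece (TBIG000758, 1.18), TYS1 (tyrosine, 0.90), a GLN4 piece (TBIG005813, 0.88) and KRS1 (lysine, 0.77), and TYS1, GLN4 and KRS1 also lost their call without 0 min replicate 1 (0.80, 0.63 and 0.61). KRS1 further lost it without either 30 min library (0.77 each). Without the trend neither the GLN4 piece nor KRS1 was called, and with its 3 pieces joined GLN4 was at 0.50 and not called (limma adjusted p = 0.198). The largest changes at 5, 15 and 30 min (3.46, 2.93 and 3.22) were in the other WRS1 piece, TBIG000757. It was listed at 0 FPKM in 1 of the 0 min libraries and was not called. Joined, WRS1 was called at 5, 15 and 30 min (1.60, 1.73 and 1.74, limma adjusted p = 0.0208, 0.0114 and 0.00606).

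The mitochondrial rows called lower at 5 min in H. burtonii were msk1, the lysyl enzyme (-0.98, SE 0.23), MSD1, the aspartyl enzyme (-0.96, SE 0.24), and MSM1, the methionyl enzyme (-0.90, SE 0.20). Transcripts of msk1 went from 38.9 and 29.9 to 14.9 and 18.9 FPKM (limma adjusted p = 0.0237). MSD1 went from 27.9 and 24.7 to 13.8 and 12.2, and MSM1 from 42.2 and 38.7 to 23.4 and 19.2. In all of these the 5 min libraries lay below both 0 min libraries. Without 0 min replicate 1 the values were -0.80, -0.88 and -0.84, and none was called. MSD1 also lost its call without either 30 min library (-0.96 each).

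At 15 min in H. burtonii 4 other rows were higher and 3 lower of 22, and 1 mitochondrial row was higher and 0 lower of 16, where 22.8% of all genes were called higher and 6.93% lower. The median of all genes had itself moved by 0.39, and the class medians were 0.40 (other) and 0.08 (mitochondrial). With scaling by median ratio or by quantiles, which puts the median of all genes near 0, the mitochondrial median turned to -0.27 and -0.32. The calls then also leaned the other way. With median-ratio scaling 3 other rows were higher and 4 lower, and 0 mitochondrial rows were higher and 3 lower (11.6% and 12.3% of all genes). With quantile scaling 2 rows were higher and 4 lower in all (9.18% and 10.3%). FRS2 reached 355 and 442 FPKM (1.28, SE 0.18, limma adjusted p = 0.00241) and the WRS1 piece TBIG000758 went from 13.8 and 11.98 to 36.9 and 57.9 (1.77, SE 0.26, adjusted p = 0.00292). These 2 calls and that of the short CDC60 piece (-1.18, SE 0.16) held whichever of the 8 libraries was left out and under every other setting tried. With its 2 pieces joined CDC60 was at -0.58 (limma adjusted p = 0.0452).

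The other calls at 15 min in H. burtonii were less firm. PRS was at 11.6 and 15.1 FPKM (1.53, SE 0.35), a call lost with 15 min replicate 2 left out (1.35) and with quantile scaling (0.79). CysRS, the cysteinyl enzyme (0.73), MSE1, the mitochondrial glutamyl enzyme (1.01), ArgRS, the arginyl enzyme (-0.75), and ALA1, the alanyl enzyme (-0.61), each lost their call in at least 3 of 8 refits without 1 library. CysRS and MSE1 were not called under median-ratio (0.37 and 0.67) or quantile scaling (0.42 and 0.43). Without 0 min replicate 1 the counts over all synthetase rows were 3 higher and 1 lower, and without 15 min replicate 2 there were 2 higher. Leaving out either 5 min library or 15 min replicate 1 left 1 lower.

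At 30 min synthetase genes of H. burtonii stood broadly above their 0 min level. Of 38 rows limma called 22 higher and 0 lower, 12 of 22 other and 10 of 16 mitochondrial, against 37% of all genes called higher and 11.1% lower. At an unadjusted p under 0.05 there were 25 higher and 0 lower, against 43.8% and 12.7% of all genes. The log2 change was positive in 36 of 38 rows (73.2% of all genes), and in 33 both 30 min libraries lay above both 0 min libraries (57.5% of all genes). The median change was 0.82 in the other rows and 0.79 in the mitochondrial rows, and 0.56 over all genes. With median-ratio scaling 10 rows were called higher and 1 lower (16.9% and 18.1% of all genes), and with quantile scaling 9 and 1 (16.3% and 16.7%). Without 30 min replicate 1 there were 11 higher.

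Calls that held whichever library was left out, and under every other setting tried, were those of CysRS, FRS2, PRS, THS1 and the WRS1 piece TBIG000758 among the other rows. In the mitochondrial class they were those of DIA4, MSE1, MST1 and the ISM1 piece TBIG003014. DIA4, the mitochondrial seryl enzyme, went from 14.8 and 9.71 FPKM at 0 min through 11.8 and 10.4 at 5 min and 17.7 and 16.0 at 15 min to 56.2 and 46.8 at 30 min. It had thus risen between 15 and 30 min (30 against 0 min, 2.01, SE 0.26, limma adjusted p = 0.000733; 30 against 15 min, 1.56, SE 0.26, adjusted p = 0.00762). THS1, the cytosolic threonyl enzyme, went from 36.4 and 49.0 at 0 min to 126 and 113 (1.48, SE 0.20, adjusted p = 0.000852). The mitochondrial threonyl enzyme MST1 went from 24.0 and 12.9 to 60.9 and 48.4 (1.57, SE 0.32, adjusted p = 0.00554). CysRS rose from 34.1 and 39.8 to 111 and 102 FPKM (1.502, SE 0.21, adjusted p = 0.00118). MSE1 rose from 11.9 and 11.1 to 30.1 and 36.0 (1.44, SE 0.26). FRS2 was at 484 and 433 (1.49, SE 0.18) and PRS at 18.4 and 18.2 (1.96, SE 0.35).

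The further rows called higher at 30 min in H. burtonii ranged from 0.60 (MSY1, the mitochondrial tyrosyl enzyme) to 1.32 (the ISM1 piece TBIG003013). The MSY1 call was lost in 6 of 8 refits without 1 library, under both scalings (0.10 and 0.14), without the trend and with a replicate block. TYS1, ProRS, NAM2, msk1, MSF1, the long CDC60 piece and the 3 GLN4 pieces also lost their calls under both scalings, with values from 0.14 (NAM2) to 0.82 (GLN4 TBIG005815), and joined CDC60 was not called (0.39). The ISM1 piece TBIG003013 lost its call under quantile scaling (0.64). MSW1, the mitochondrial tryptophanyl enzyme, went from 46.4 and 33.1 to 90.1 and 105 FPKM (1.29, SE 0.25, limma adjusted p = 0.00431). FRS1 went from 105 and 104 to 189 and 169 (0.77, SE 0.16). Both held without any single library and were not called under median-ratio or quantile scaling, MSW1 at 0.78 and 0.80 and FRS1 at 0.27 and 0.44. SES1, the highest cytosolic enzyme at 0 min apart from the short CDC60 piece, was at 386 and 371 then and 405 and 396 at 30 min (0.08, not called). GRS1, HTS1 and VAS1, described as mitochondrial but serving both compartments in S. cerevisiae, were not called against 0 min in H. burtonii at any time. ALA1, which also serves both there, was called lower at 15 min alone.

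**Figure D3:**
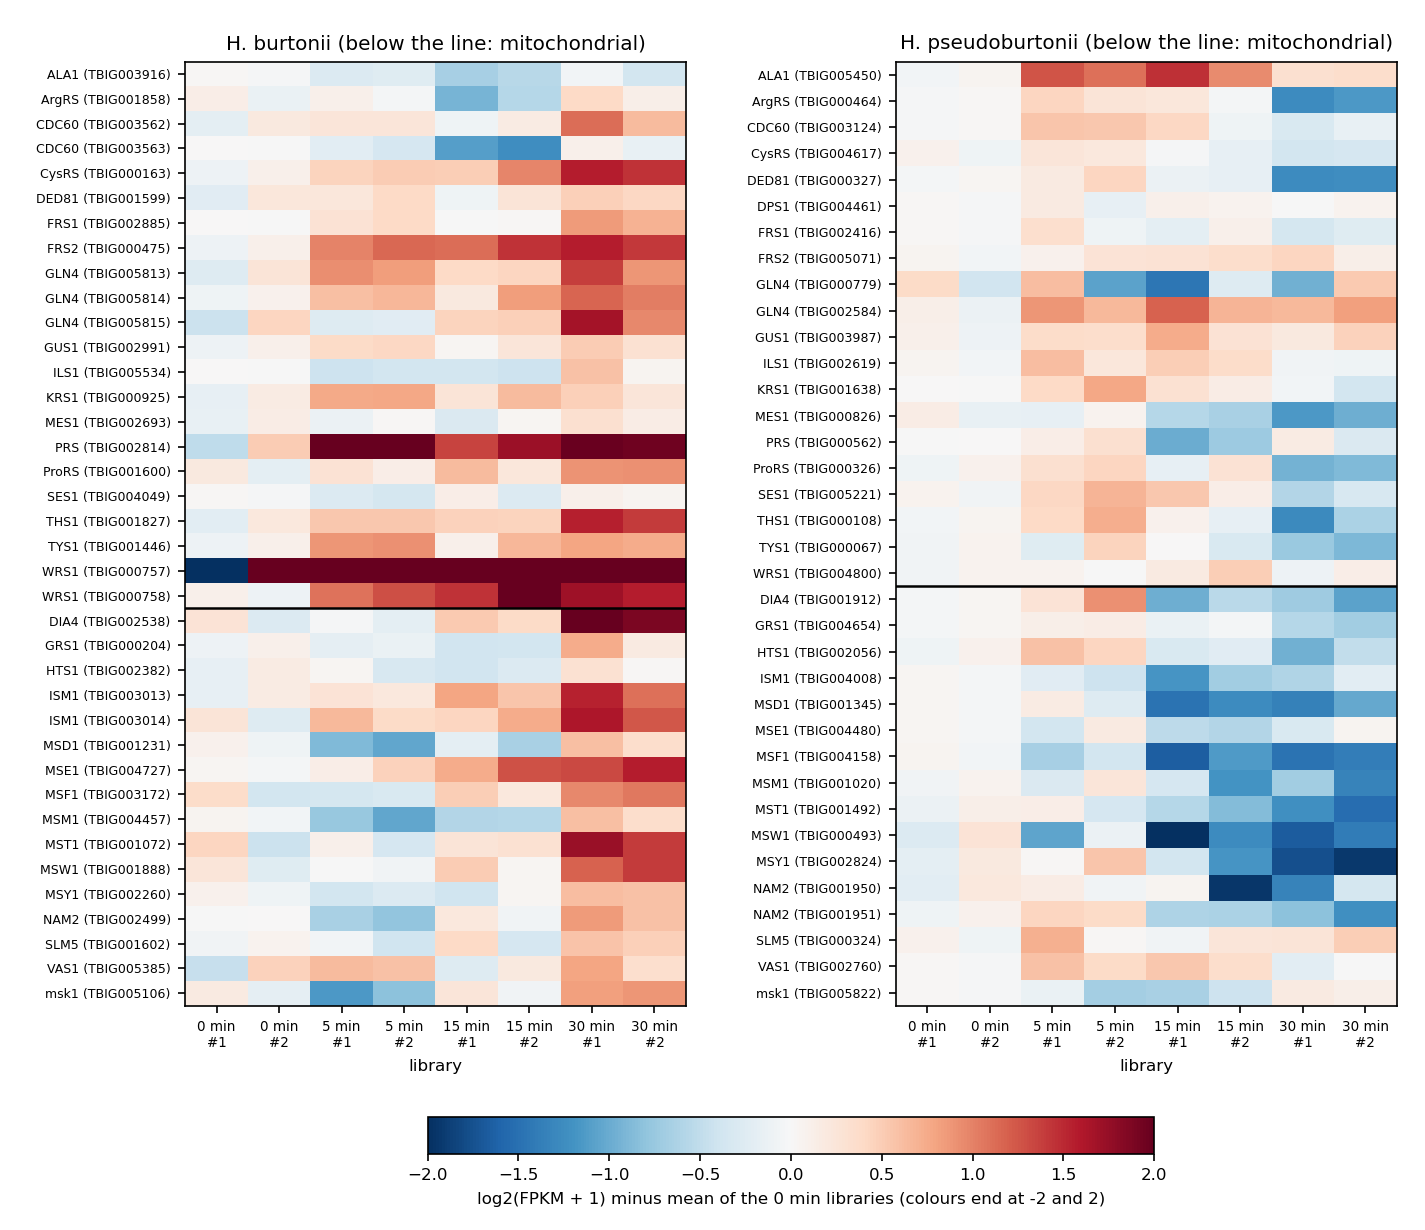
Log2(FPKM + 1) of each synthetase row in each library minus the mean of the 0 min libraries of its species, with rows below the black line described as mitochondrial; colours end at -2 and 2. In H. burtonii the 30 min columns are red in nearly all rows, and in H. pseudoburtonii the mitochondrial rows are mostly blue at 15 and 30 min.

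In H. pseudoburtonii 1 synthetase row was called at 5 min, ALA1, which went from 94.4 and 102 FPKM to 236 and 212 (1.18, SE 0.20, limma adjusted p = 0.0147). Over all genes 4.17% were called higher and 4.55% lower. ALA1 stayed at 272 and 190 FPKM at 15 min (1.21, SE 0.20, adjusted p = 0.00784) and was at 122 and 125 at 30 min (0.33, not called). With 5 min replicate 1 left out the 5 min change was 1.11, and with 0 min replicate 1 or 2 left out 1.13 or 1.24, none of them called. Without either 15 min library 3 rows were called. At an unadjusted p under 0.05 there were 9 rows higher and 0 lower, against 14.8% and 9.81% of all genes. The median change at 5 min was 0.32 in the other rows and 0.01 in the mitochondrial rows, and 0.12 over all genes.

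At 15 min the mitochondrial synthetases of H. pseudoburtonii lay lower. Of 16 mitochondrial rows 4 were called lower and 0 higher, and of 20 other rows 1 was lower and 2 were higher, against 7.8% of all genes lower and 9.9% higher. The median was -0.74 in the mitochondrial rows and 0.09 in the other rows, against 0.10 over all genes. In 13 of 16 mitochondrial rows both 15 min libraries lay below both 0 min libraries, as in 25.2% of all genes. MSF1, the mitochondrial phenylalanyl enzyme, went from 113 and 105 to 34.0 and 49.3 FPKM (-1.39, SE 0.24, limma adjusted p = 0.00883). MSD1 went from 58.6 and 55.4 to 19.9 and 23.3 (-1.36, SE 0.26, adjusted p = 0.0119). MSW1 (-1.90, SE 0.50) and ISM1 (-0.93, SE 0.26) were also called lower, as was PRS of the other class, from 53.7 and 53.8 to 26.4 and 31.97 (-0.86, SE 0.24). The GLN4 row TBIG002584 rose from 182 and 156 to 381 and 270 (0.92, SE 0.21). Of these calls at 15 min 0 held whichever library was left out. Without either 0 min library 0 synthetase rows were called, without 15 min replicate 1 there were 1 higher and 3 lower, and without either 30 min library 2 were lower.

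At 30 min synthetase genes of H. pseudoburtonii stood mostly below their 0 min level, while the median of all genes lay above it. Of 36 rows 14 were called lower and 1 higher, where 9.69% of all genes were lower and 25.8% higher. Both classes took part, with 6 of 20 other rows and 8 of 16 mitochondrial rows lower. The median was -0.22 and -0.86, against 0.39 over all genes. Scaling brought the median of all genes to 0.010 (median ratio) and -0.072 (quantiles), and the class medians stayed negative. With median-ratio scaling 21 rows were lower (17.1% of all genes) and with quantile scaling 17 (15%), and 0 were higher under either. Without 0 min replicate 1 or 2 there were 7 and 5 lower, and without 30 min replicate 1 there were 8. The call of the higher row, GLN4 TBIG002584 (0.73, SE 0.21), was lost without any 0 or 30 min library (0.62 to 0.84).

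DED81 went from 245 and 258 FPKM at 0 min to 104 and 106 at 30 min (-1.25, SE 0.16, limma adjusted p = 0.00124). ArgRS went from 356 and 367 to 150 and 162 (-1.21, SE 0.16, adjusted p = 0.00152), and MES1, the cytosolic methionyl enzyme, from 234 and 190 to 94.7 and 107 (-1.06, SE 0.18, adjusted p = 0.0043). Among the mitochondrial rows MSY1 went from 77.4 and 102 to 25.5 and 22.5 (-1.85, SE 0.33, adjusted p = 0.00471). MSF1 stayed low at 38.3 and 41.2 (-1.43, SE 0.24, adjusted p = 0.00387). The calls of these 5 genes held whichever library was left out and under every other setting tried. In each of them the 30 min libraries lay well below both 0 min libraries.

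The further rows called lower at 30 min in H. pseudoburtonii were MSW1 (-1.53), MST1 (-1.37), MSD1 (-1.19), the NAM2 piece TBIG001951 (-1.02), THS1 (-0.96), ProRS (-0.91), TYS1 (-0.82), HTS1 (-0.73) and GRS1 (-0.63). Each lost its call without at least 1 of the 0 or 30 min libraries, with values from -1.80 (MSW1 without 0 min replicate 1) to -0.50 (HTS1 without 30 min replicate 1). GRS1, the highest synthetase row of this species at 0 min, went from 483 and 505 to 332 and 304 FPKM. Rows not called included DPS1 (0.03), GUS1 (0.33), WRS1 (0.02), FRS1 (-0.30) and FRS2 (0.28) of the cytosolic enzymes, and SLM5 (0.37), MSE1 (-0.12) and msk1 (0.15) of the mitochondrial ones. SES1 was at 380 and 344 FPKM at 0 min, 483 and 580 at 5 min and 241 and 290 at 30 min (-0.45, not called against 0 min).

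Changes between successive harvests were compared in the same way. From 5 to 15 min 2 rows of H. burtonii were called higher, the mitochondrial msk1 (1.07) and NAM2 (0.79), and 2 lower, ArgRS (-0.78) and the short CDC60 piece (-0.91), against 16.1% and 3.95% of all genes. Without either 5 min library 0 were called, without 15 min replicate 1 there was 1, and without either 30 min library there were 2. From 15 to 30 min all 16 mitochondrial rows had both 30 min libraries above both 15 min libraries, as in 36.7% of all genes. At an unadjusted p under 0.05 there were 24 rows higher and 0 lower, against 20% and 12.1% of all genes. After adjustment 13 rows were called higher and 0 lower, against 9.49% and 6.73% of all genes. That count fell to 1 without 30 min replicate 1, 4 without 30 min replicate 2, 7 and 5 without 15 min replicate 1 and 2, and 5 and 6 without 5 min replicate 1 and 2. It was 5 with median-ratio scaling. For both species, the share of all genes called between successive harvests under scaling was not taken.

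In H. pseudoburtonii 3 rows were called lower from 5 to 15 min and 0 higher, against 1.72% and 3.05% of all genes. They were PRS (-1.09), MSD1 (-1.31) and the NAM2 piece TBIG001951 (-1.03). At an unadjusted p under 0.05 there were 13 lower and 0 higher, against 9.99% and 11% of all genes. Joined, NAM2 was at -0.98 and not called (limma adjusted p = 0.0549). All 16 mitochondrial rows had a negative change, and 12 had both 15 min libraries below both 5 min libraries, as in 22.3% of all genes. The count of called rows was 1 without 5 min replicate 1 and 0 with 5 min replicate 2, 15 min replicate 1 or any library of 0 or 30 min left out. From 15 to 30 min 7 rows were called lower and 0 higher, against 3.38% and 11% of all genes, with 6 of the 7 among the other synthetases. They were ArgRS (-1.30), DED81 (-1.10), ProRS (-0.97), THS1 (-0.91), ALA1 (-0.87), SES1 (-0.79) and the mitochondrially described GRS1 (-0.55). Without either 30 min library 0 were called, without either 0 min library there were 2, without 15 min replicate 1 there were 3, and with median-ratio scaling 13.

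The comparison between species asked whether the same gene changed differently. Rows were paired by Swiss-Prot accession or else by name, each found once per species, which gave 28 synthetase pairs (15 other, 13 mitochondrial) among 3399 pairs tested. Split genes and repeated accessions left 10 rows of H. burtonii and 8 of H. pseudoburtonii in no pair. Differences are given as H. pseudoburtonii minus H. burtonii. At 30 min the change was called lower in H. pseudoburtonii in 20 of 28 pairs and higher in 0, against 23.3% and 12.8% of all pairs. By class these were 10 of 15 other and 10 of 13 mitochondrial pairs. The difference was negative in 27 of 28 pairs with a median of -1.48, against -0.28 over all pairs. With median-ratio scaling 20 pairs were called lower, against 21% of all pairs, and with quantile scaling 19, against 20.4%. The median difference was then -1.37 and -1.21, against -0.19 and -0.23 over all pairs.

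In 23 of 28 pairs the 30 min change was positive in H. burtonii and negative in H. pseudoburtonii. Over all 3399 pairs this held in 28.4%. In 7 of the 23, TYS1, ProRS, THS1, MST1, MSW1, MSY1 and MSF1, both changes were called within their own species, as in 4.59% of all pairs. For 0 of these 7 did the calls of both species hold without any single library and under both scalings. The H. burtonii calls of TYS1, ProRS, MSW1, MSY1 and MSF1 were lost under both scalings, and the H. pseudoburtonii calls of THS1 and MST1 without at least 1 library. The difference was -2.94 for MST1 (SE 0.42, limma adjusted p = 0.000245), -2.89 for DIA4 (SE 0.40, adjusted p = 0.000202) and -2.43 for THS1 (SE 0.32, adjusted p = 0.000162). FRS2 was at 1.49 in H. burtonii and 0.28 in H. pseudoburtonii (difference -1.21, SE 0.25), and ArgRS at 0.25 and -1.21 (difference -1.46, SE 0.27). Pairs not called at 30 min were ALA1 (0.54), GUS1 (-0.08), SLM5 (-0.16), ILS1 (-0.40), SES1 (-0.53), KRS1 (-0.58), VAS1 (-0.67) and msk1 (-0.71).

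**Figure D4:**
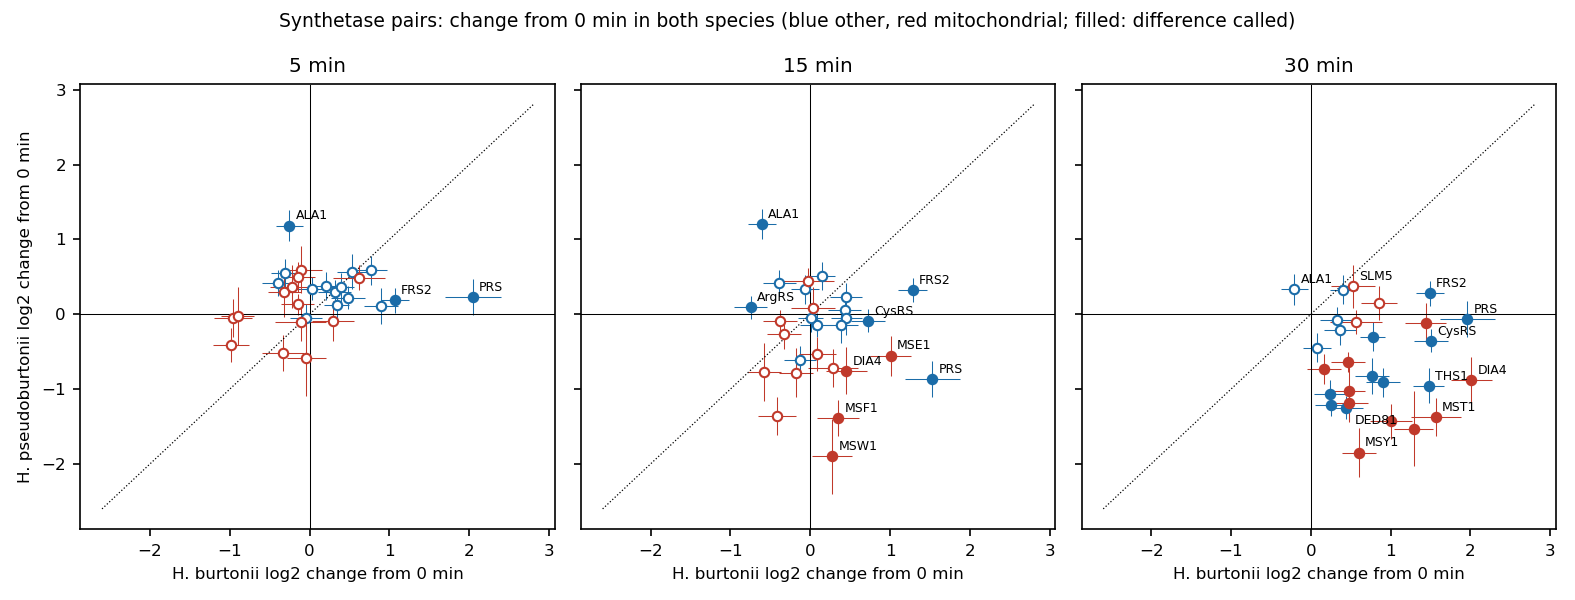
Log2 change from 0 min of each synthetase pair in H. burtonii (horizontal) and H. pseudoburtonii (vertical) at 5, 15 and 30 min, with bars of 1 SE; blue marks other and red mitochondrial pairs, and filled points have a called difference between species. The dotted line marks equal change; at 30 min 27 of 28 points lie below it and 23 fall in the lower right part.

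Earlier, fewer pairs differed. At 5 min 1 pair was called higher in H. pseudoburtonii and 2 lower, against 7.86% and 7.68% of all pairs. ALA1 differed by 1.44 (SE 0.27, limma adjusted p = 0.00455), a call that held whichever of the 16 libraries was left out. PRS differed by -1.82 and FRS2 by -0.88, and without H. burtonii 5 min replicate 2 neither was called (-1.81 and -0.80), leaving 1 pair, while without H. pseudoburtonii 5 min replicate 2 there were 5. At 15 min 2 pairs were higher in H. pseudoburtonii and 7 lower, against 5.88% and 14.9% of all pairs. With median-ratio scaling there were 3 higher and 4 lower, where 10.9% of all pairs were lower. With quantile scaling there were 3 and 3, where 8.71% of all pairs were lower. These shares called lower lay near those of all pairs, and the share of all pairs called higher under scaling is not given here. The median difference went from -0.43 to -0.18 and -0.038, and that of all pairs from -0.33 to -0.087 and -0.0037. CysRS, FRS2 and DIA4 were not called under either scaling. ALA1 (1.81, SE 0.27), PRS (-2.39, SE 0.43), MSF1 (-1.74, SE 0.36) and MSE1 (-1.56, SE 0.37) held whichever library was left out, MSE1 not under quantile scaling (-1.07). The count at 15 min was 5 without either H. pseudoburtonii 0 min library or its 15 min replicate 1.

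For amino acids with 1 row in each class, the cytosolic over mitochondrial FPKM ratio moved differently by amino acid, and these ratios were not tested. In H. burtonii the seryl enzymes went from SES1 at 30.9 times DIA4 at 0 min to 7.77 times at 30 min, and the glutamyl enzymes GUS1 and MSE1 from 14.9 to 6.91. The threonyl ratio was 2.31 and 2.19 and the asparaginyl ratio 8.66 and 8.001. In H. pseudoburtonii the tryptophanyl enzymes went from WRS1 at 6.77 times MSW1 to 21.0 times, the tyrosyl enzymes from 3.79 to 8.01 and the aspartyl enzymes from 6.17 to 14.6. The asparaginyl ratio of DED81 to SLM5 went the other way there, from 6.38 to 2.05, as did the lysyl ratio (1.798 to 1.405), while the methionyl ratio was 6.35 and 6.16. These are ratios of means over 2 libraries, and the ratios of single libraries could lie far apart. In H. burtonii the log2 ratio of THS1 to MST1 was 0.58 and 1.84 in the 0 min libraries, and in H. pseudoburtonii that of MES1 to MSM1 was 2.18 and 2.99 at 30 min.

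A group of synthetase genes lay side by side in both genomes, in the coordinates of the deposited tables, for which the sources used here name no build. In H. burtonii DED81 (chromosome 2, 476214 to 477872, minus strand) and ProRS (478332 to 480386, plus strand) were transcribed away from each other with 459 bases between them. SLM5, the mitochondrial asparaginyl enzyme (481616 to 483127, plus strand), followed after 1 other gene. In H. pseudoburtonii ProRS (chromosome 1, 870144 to 872198, minus strand) and DED81 (872877 to 874535, plus strand) had 678 bases between them, and SLM5 (867257 to 868783, minus strand) again stood 1 gene beyond ProRS. DED81 of H. burtonii read 205 and 279 FPKM at 0 min and 332 and 319 at 30 min (0.44, not called). ProRS rose there from 107 and 81.8 to 175 and 177 (0.90, SE 0.21, limma adjusted p = 0.0101), not called without either 30 min library (0.91 and 0.90) or under median-ratio or quantile scaling (0.39 and 0.55). In H. pseudoburtonii ProRS went from 233 and 264 to 129 and 135 (-0.91, SE 0.19, adjusted p = 0.00898; not called without 0 min replicate 2, -0.82, or 30 min replicate 1, -0.88). DED81 and ProRS were thus lower at 30 min in H. pseudoburtonii, while SLM5, at 41.6 and 37.2 and then 47.1 and 55.8, was not called.

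**Figure D5:**
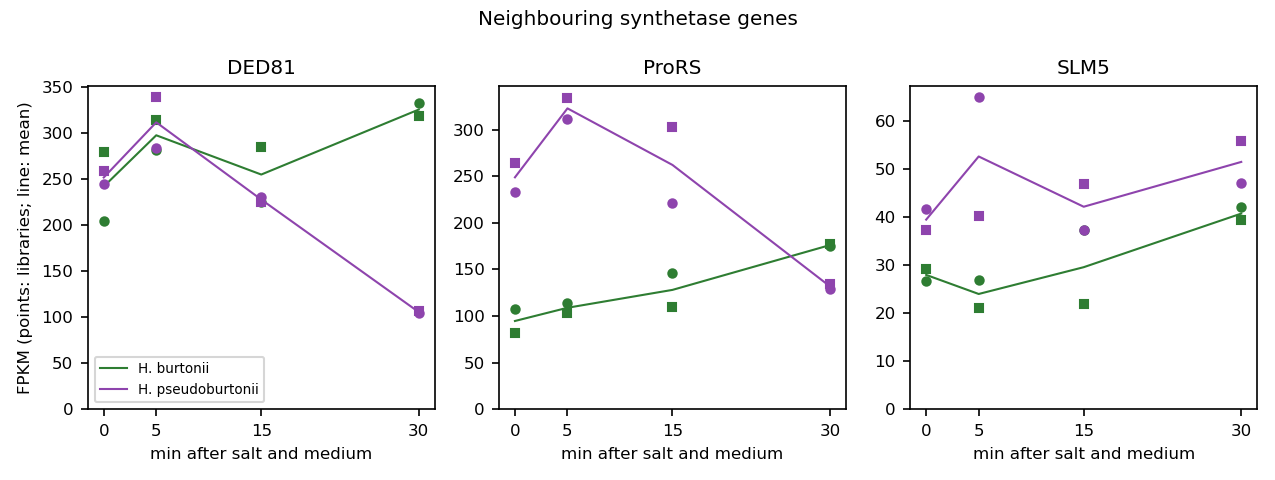
FPKM of the neighbouring genes DED81, ProRS and SLM5 against minutes after the addition of salt and medium, in H. burtonii (green) and H. pseudoburtonii (purple); circles are library 1, squares library 2 and lines the mean. DED81 and ProRS of H. pseudoburtonii end near 105 and 132 FPKM, below all their earlier libraries, and SLM5 does not.

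Of other genes of tRNA charging and its sensing, 19 rows were measured in H. burtonii and 17 in H. pseudoburtonii. In H. burtonii 2 of 19 were called higher and 2 lower at 5 min, 2 higher at 15 min and 8 (42.1%) higher at 30 min, against 11.2%, 11.1%, 22.8% and 37% of all genes. In H. pseudoburtonii limma called 0 of 17 at 5 min, against 4.17% of all genes higher and 4.55% lower. At an unadjusted p under 0.05 there were 4 higher and 0 lower, against 14.8% and 9.81% of all genes. There 11.8% (2) were higher and 11.8% (2) lower at 15 min, and as many at 30 min, against 9.9% and 7.8% of all genes at 15 min and 25.8% and 9.69% at 30 min. The shares of called rows lay near or below those of all genes. LOS1, the exportin that carries tRNA out of the nucleus, rose in H. burtonii from 1.11 and 4.12 FPKM at 0 min to 20.6 and 16.5 at 15 min and 24.8 and 45.8 at 30 min (3.40, SE 0.45, limma adjusted p = 0.000901). In H. pseudoburtonii it fell from 93.4 and 93.0 to 40.0 and 43.9 at 30 min (-1.13, SE 0.20, adjusted p = 0.00448). GCN4 rose in H. burtonii from 1426 and 1115 to 3059 and 3280 FPKM at 30 min (1.33, SE 0.20, adjusted p = 0.00167). CCA1, which adds the CCA end of tRNA, rose there from 26.4 and 26.7 to 56.6 and 59.3 (1.10, SE 0.19, adjusted p = 0.00272).

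FMT1, which formylates the mitochondrial initiator tRNA, went in H. pseudoburtonii from 68.5 and 66.2 FPKM to 19.8 and 18.4 at 15 min (-1.77, SE 0.22, limma adjusted p = 0.00221) and 21.6 and 25.0 at 30 min (-1.50, SE 0.22). The 30 min calls of LOS1, GCN4 and CCA1 in H. burtonii and of LOS1 and FMT1 in H. pseudoburtonii held whichever library was left out and under every other setting tried. GCN4 of H. pseudoburtonii was at 294 and 256 FPKM at 0 min and 433 and 513 at 30 min (0.78, SE 0.16, adjusted p = 0.00781). Its call was lost with replicate 2 of 0 min (0.68) or of 30 min (0.66) left out. With median-ratio scaling it was 0.37 and not called. GCN2 of H. pseudoburtonii was also called higher at 30 min (0.94, SE 0.26), but not under median-ratio or quantile scaling (0.56 and 0.17). Its call was also lost when any 0 or 30 min library was left out (0.89 to 0.99). The GCN2 rows of H. burtonii were not called at 30 min (0.05 and 0.47). The amidotransferase subunit genes PET112 (1.58) and GTF1 (0.76) were called higher in H. burtonii at 30 min, and each lost the call without 0 min replicate 1 (1.45 and 0.81) or 30 min replicate 1 (1.67 and 0.51), and under median-ratio (1.13 and 0.26) and quantile scaling (0.86 and 0.27). The third subunit gene, HER2, was not called (0.22). Further calls in H. burtonii were LOS1 (1.67), GCN1 (0.80), DTD1 (-1.04) and an IPP1 row (-1.06) at 5 min and GIR2 (0.73) at 15 min. At 30 min they were the other IPP1 row (0.67), ARC1 (0.58) and DTD1 (0.58). In H. pseudoburtonii they were GCN4 (0.87), a TEF1 row (0.69) and HER2 (-0.86) at 15 min. Each of these further calls was lost without at least 1 library.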

How the data were processed

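RNA-seq libraries of 2 Hyphopichia species at 4 times were analysed from 1 table per species. The deposited values are FPKM per gene, as the labels and the column names give them. The submitters' processing notes name TopHat2 2.1.1, Cufflinks 2.2.1, CASAVA 1.8.2 and FastQC 0.11.8. No source used here gives the genome build, the annotation or the strand setting. FPKM keep no read counts, so no count test was run and no counting interval is given.

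From the FPKM, log2(FPKM + 1) was taken for genes reaching FPKM 1 in 2 or more of a species' 8 libraries (6047 and 5798 genes). limma 3.58.1 in R 4.3.3, with a trend in the prior variance, fitted 1 mean per time in each species, and Benjamini-Hochberg adjustment ran over all genes tested. For the species difference the changes of 3399 gene pairs (from 3415, 3235 by accession and 180 by name) were contrasted in 1 fit. The code was run on simulated data with independent normal noise, which meet the assumptions of the tests by construction. That run cannot show that the calls are valid for these libraries. Alternatives were median-ratio and quantile scaling, a pseudocount of 0.1, no filter, no trend, a replicate block and each library left out. Joining neighbouring rows of 1 accession and leaving out GRS1, HTS1 and VAS1 were added after seeing the data.

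All rows meeting the rule may be named. Values per library are given for some of the called rows and not for every extreme of a class. Related genes of tRNA charging were listed by name, and 2 unrelated proteins matched by name (arc1 and gatA) were removed after their descriptions were read. The members and lists were chosen with earlier results of these data known. Sequences are not shown. Figures were drawn with Python 3.11.15 and matplotlib 3.10.9.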

Additional observations from a re-analysis of the deposited data

Results flagged for a closer look

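The differences below are the synthetase pairs whose change from 0 min differed between the species, each given on the log2 scale as H. pseudoburtonii minus H. burtonii and called by limma at an adjusted p under 0.05 over 3399 pairs. Species and library series cannot be told apart.

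At 5 min the pairs were ALA1 (1.44), FRS2 (-0.88) and PRS (-1.82). At 15 min ALA1 (1.81) and ArgRS (0.84) were higher in H. pseudoburtonii, and CysRS (-0.82), FRS2 (-0.96), PRS (-2.39), DIA4 (-1.21), MSE1 (-1.56), MSF1 (-1.74) and MSW1 (-2.17) were lower. Of these 12 calls, those of ALA1 at both times and of PRS, MSF1 and MSE1 at 15 min held whichever library was left out. ArgRS, CysRS and DIA4 at 15 min lost theirs in at least 11 of 16 such refits.

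At 30 min all the called pairs were lower in H. pseudoburtonii. Among the other synthetases they were THS1 (-2.43), PRS (-2.02), CysRS (-1.86), ProRS (-1.81), DED81 (-1.69), TYS1 (-1.58), ArgRS (-1.46), MES1 (-1.30), FRS2 (-1.21) and FRS1 (-1.07). Among the mitochondrial ones they were MST1 (-2.94), DIA4 (-2.89), MSW1 (-2.82), MSY1 (-2.45), MSF1 (-2.44), MSD1 (-1.66), MSE1 (-1.56), MSM1 (-1.50), GRS1 (-1.10) and HTS1 (-0.89). Of these 20 calls 18 held whichever library was left out. HTS1 lost its call in 5 of 16 refits, with values down to -0.66, and with quantile scaling (-0.72), and MSM1 lost its call without H. burtonii 30 min replicate 1 (-1.38), H. pseudoburtonii 0 min replicate 2 (-1.44) or 30 min replicate 2 (-1.18).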

How the results depend on the processing

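With 2 libraries per time, counts of called rows depend on single libraries. A refit without 1 library leaves 1 library at that time, and calls could be lost at an unchanged log2 value. The share of all genes called in these refits was not taken, so lower counts there cannot be called particular to synthetases. Nor was the share of all genes called between successive harvests under either scaling. The scaled counts between harvests therefore cannot be called particular to synthetases either. No called gene changed sign under any alternative run, while counts and class differences did turn in places given here. With median-ratio scaling H. burtonii had 3 rows higher and 7 lower at 15 min, 10 and 1 at 30 min and 5 called from 15 to 30 min. In H. pseudoburtonii 0 were then higher at 30 min and 13 called from 15 to 30 min. With quantile scaling the H. burtonii counts were 2 higher and 4 lower at 15 min, 9 higher and 1 lower at 30 min and 6 from 15 to 30 min. In H. pseudoburtonii they were 0 higher at 30 min, 1 from 5 to 15 min and 14 from 15 to 30 min. The mitochondrial minus other median of H. burtonii at 5, 15 and 30 min (-0.51, -0.32 and -0.04) was then -0.78, -0.37 and -0.15. That of H. pseudoburtonii (-0.32, -0.83 and -0.64) was -0.52, -0.99 and -1.13. Without GRS1, HTS1 and VAS1 it was -0.13 (15 min) and 0.18 (30 min) for H. burtonii, and -0.80 (30 min) for H. pseudoburtonii. With neighbouring rows joined it was -0.20 (15 min) and 0.12 (30 min) for H. burtonii. Without the filter H. pseudoburtonii had 3 rows lower at 15 min and 1 from 5 to 15 min. Without the trend it had 1 higher and 2 lower at 15 min, 0 higher at 30 min, 0 from 5 to 15 min and 3 from 15 to 30 min. A pseudocount of 0.1 moved no median and no total count beyond the limits used. It did take the pairs called higher in H. pseudoburtonii at 5 min from 1 to 2. In H. pseudoburtonii MSW1 at 30 min (-1.59) and HER2 at 15 min (-0.89) lost their calls with it, as did the DIA4 pair at 15 min (-1.27). The cause of these shifts was not tested.

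The replicate numbers were not taken to pair the libraries, since not every correlation of same-numbered deviations was over 0.1 (values from -0.16 to 0.46 for H. burtonii, and -0.09 to 0.04 for H. pseudoburtonii). Among H. burtonii at 0, 5 and 15 min they were 0.16, 0.46 and 0.16. With the replicate block H. burtonii kept its counts within the limits used but lost MSY1 at 30 min, and H. pseudoburtonii had 3 rows lower at 15 min, 0 called from 5 to 15 min and 4 from 15 to 30 min.

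Leaving out each library in turn, H. burtonii had 0 to 9 higher and 0 to 3 lower at 5 min, 2 to 7 and 1 to 3 at 15 min, 11 to 22 and 0 at 30 min, 0 to 5 called from 5 to 15 min and 1 to 15 from 15 to 30 min. H. pseudoburtonii had 0 to 3 higher and 0 lower at 5 min, 0 to 3 and 0 to 5 at 15 min, 0 to 1 and 5 to 15 at 30 min, 0 to 2 from 5 to 15 min and 0 to 10 from 15 to 30 min. The class difference ran from -0.84 to -0.37, -0.38 to 0.087 and -0.12 to 0.15 for H. burtonii. For H. pseudoburtonii it ran from -0.32 to -0.19, -0.90 to -0.69 and -0.76 to -0.43. In H. burtonii its sign turned at 15 min without 0 min replicate 1 (0.064) or 15 min replicate 2 (0.087), and at 30 min without replicate 1 of 0 min (0.15) or of 30 min (0.022). Pairs called numbered 1 to 5, 5 to 10 and 18 to 21.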
